A study of Mus musculus and Homo sapiens with 65 samples.

Results

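The DEAD-box and DEAH-box genes are a large family of RNA helicases, and their RNA was followed here in mouse embryos at the late 2-cell stage. Members were taken by symbol: every gene whose name was Ddx or Dhx followed by a number and at most 1 letter. All members are called helicases below, although a symbol alone does not show that a gene encodes an RNA helicase. Ddx26b is a helicase by symbol only. That gave 52 of the 32287 genes measured, 36 named Ddx and 16 named Dhx, with no Y-linked gene among them, and by rule 1 family gene was not analysed. RNA-seq libraries of 4 groups were compared, 9 of the 65 samples in the series: 3 libraries of wild-type embryos, 2 of embryos treated with alpha-amanitin, 2 of embryos injected with mismatch control morpholinos, and 2 of embryos that received morpholinos directed at Kdm5a and Kdm5b together. Alpha-amanitin, from death cap mushrooms, stops RNA polymerase II, so it can lower transcripts the embryo makes itself while those already stored in the egg may remain. A transcript that is not lower with it need not be a stored one only. Morpholinos are antisense oligomers that hinder translation or splicing of a target RNA, and KDM5A and KDM5B are demethylases of histone H3 at lysine 4. Injection was into zygotes at 0.5 days after conception, followed by culture to the late 2-cell stage. The sources used here give neither the mouse strain, nor the number of embryos per library, nor the dose of alpha-amanitin. A morpholino need not lower the level of its target's mRNA, so these libraries cannot check the knockdown, and nothing in the labels ties replicates to separate collections of embryos. The p-values therefore rest on the spread among these libraries alone, part of which may be technical.

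DEAD-box and DEAH-box proteins use ATP to open short RNA duplexes, to move along RNA or to strip proteins from it, and they are named after a stretch of amino acids in their ATP-binding core. Different members drive single steps of splicing, build ribosomes in the nucleolus, carry mRNA through the nuclear pore, start or repress translation, or sense foreign RNA. In the mouse, broad transcription of the embryonic genome starts at the late 2-cell stage, as RNA deposited in the egg is cleared.

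Levels are FPKM, fragment counts divided by the length of the transcript and by the total of the library, so levels can be set side by side between genes, but each is relative to all other RNA of the same library. In bulk samples such as these, fewer cells of a type and less RNA per cell cannot be told apart. Read counts are not part of the files, so the depth of each library is unknown. The labelled stage was checked against marker genes. The summed level of 6 genes of the 2-cell stage (Zscan4c, Zscan4d, Zfp352, Tdpoz1, Tcstv1, Tcstv3) was 238 to 321 FPKM in wild-type libraries, 277 to 304 in mismatch controls and 303 to 367 with Kdm5a+b morpholinos, against 14.2 and 16.0 with alpha-amanitin. The summed level of 6 oocyte genes was 467 to 585 FPKM in wild-type and 898 and 989 in alpha-amanitin libraries. Marker lists of cumulus, sperm, blood and oviduct cells summed to at most 8.9 FPKM in any library, with Foxl2, Inha, Acr, Prm1 and Hbb-bs at 0 in all 9. Other genes of these lists were detected. The highest values were 7.83 FPKM for Ovgp1 of the oviduct list, in a Kdm5a+b library. In wild-type libraries Tnp1 of sperm reached 5.44, Hba-a1 of blood 4.62 and Tnfaip6 of cumulus cells 3.42 FPKM. Between 10611 and 11228 genes stood at 1 FPKM or more in the wild-type and injected libraries, and 7977 and 7935 with alpha-amanitin. The summed oocyte level and this number of genes moved with the alpha-amanitin group, and their part in the results below was not tested.

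In wild-type embryos the helicase family was broadly present, and 1 member stood far above the rest. Ddx3x, an X-linked helicase that helps start translation of mRNAs with structured leaders (chrX:13280970-13294052, mm10), was at 168, 295 and 172 FPKM in wild-type replicates 1, 2 and 3, a mean of 212 ± 72.5 (SD, n = 3). It ranked 83 among all genes. Next came Ddx39, an mRNA export helicase (chr8:83715177-83726892), at 60.1 ± 15.0 FPKM (SD, n = 3), and Dhx9, also called RNA helicase A (chr1:153455758-153487660), at 53.9 ± 15.2 (SD, n = 3). Ddx5, a splicing and transcription cofactor, followed at 40.0 ± 16.0 and Ddx47, a nucleolar helicase, at 36.7 ± 16.2 FPKM (SD, n = 3 each). Ddx26b, a paralogue of a subunit of the Integrator complex that carries a helicase symbol, was at 30.8 ± 5.01, Ddx19a at 30.7 ± 8.22 and Dhx8 at 29.8 ± 14.3 FPKM (SD, n = 3 each). Among these 8 genes, neighbours in the order from Ddx39 down had overlapping values, whereas the 3 Ddx3x values lay above all values of every other member. Between 44 and 46 of the 52 members reached 1 FPKM in a wild-type library. Replicates differed by more than the estimates' own error for most of the family: the deposited bounds of at least 1 pair of wild-type replicates did not overlap for 42 of 52 members. The widest such spread among tested members was that of Dhx16, a DEAH-box helicase that activates the spliceosome, at 17.0, 0.845 and 8.60 FPKM, a 20.1-fold range within 1 group.

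**Figure D1:**
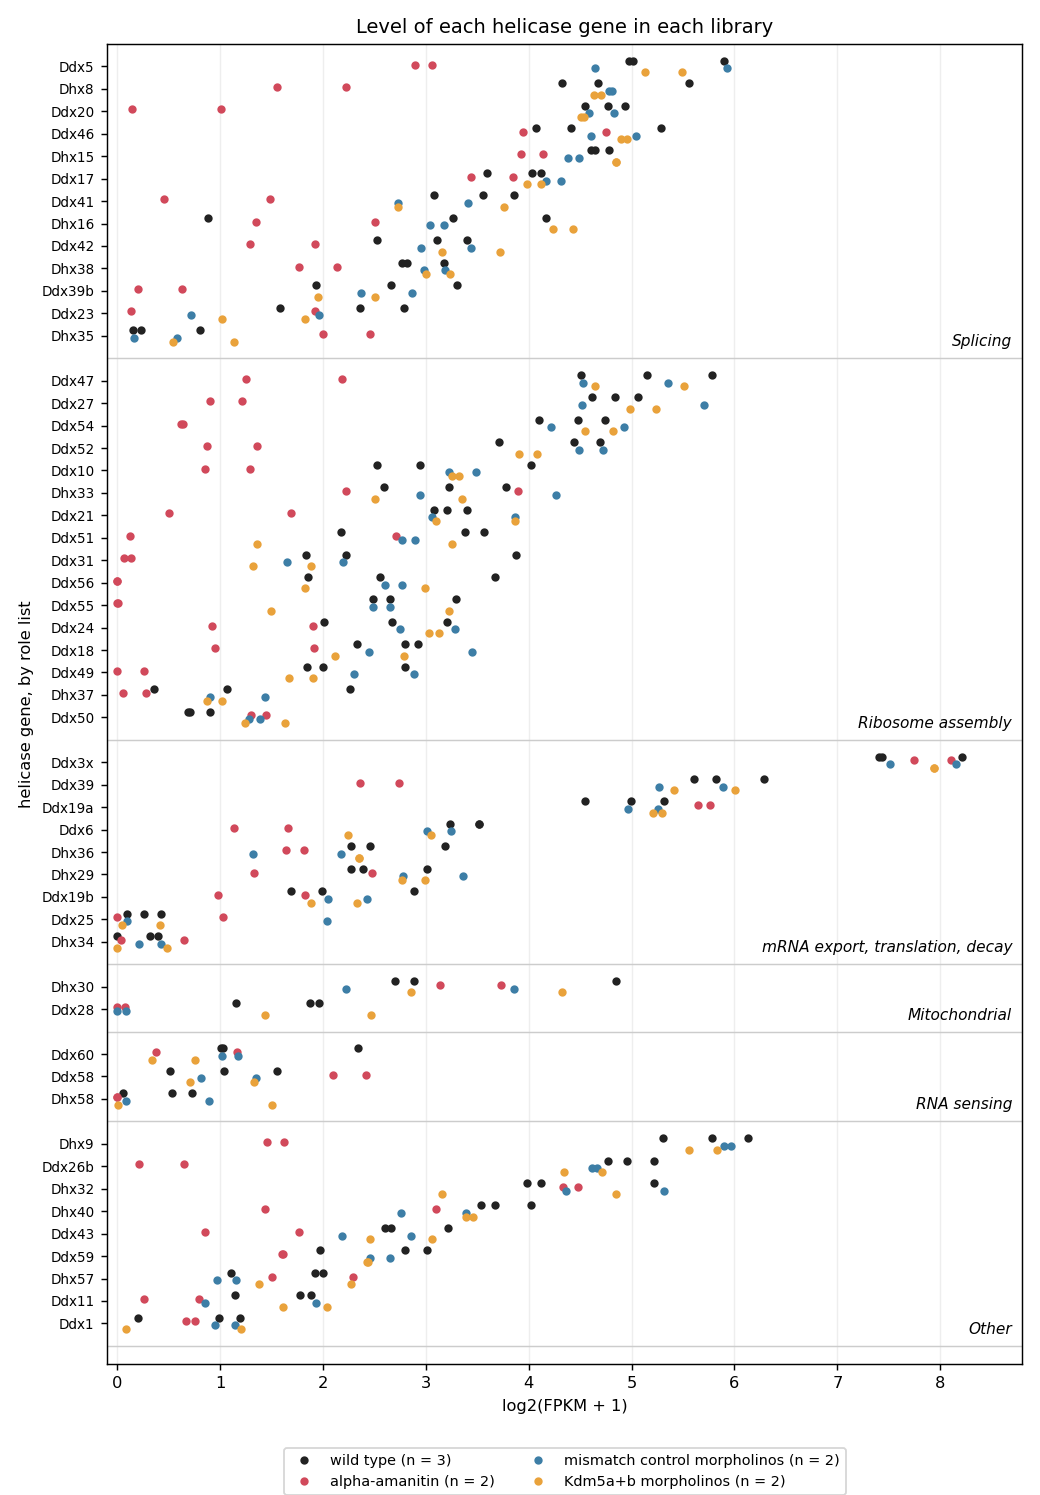
Level of each of the 52 helicase genes as log2(FPKM + 1), 1 point per library coloured by group, with genes in order of their wild-type mean within each role list. The alpha-amanitin points lie left of the others for most ribosome assembly genes, whereas the 9 points of Ddx3x lie together at the far right, between 168 and 295 FPKM.

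The family's share of RNA was lower with alpha-amanitin, and its composition was different. The summed level of the 52 members was 719.7, 1014 and 848 FPKM in wild-type libraries and 489 and 423 FPKM in alpha-amanitin libraries. As a share of all FPKM this was 0.329% to 0.437% in wild-type and 0.248% and 0.201% in alpha-amanitin libraries. Every alpha-amanitin sum lay below every wild-type sum. Without Ddx3x, the sum was 552 to 719 FPKM in wild-type and 215 and 209.5 FPKM in alpha-amanitin libraries. Ddx3x alone made up 23.3%, 29.1% and 20.2% of the family's FPKM in wild-type embryos, and 56.1% and 50.5% with alpha-amanitin. The ribosome assembly helicases summed to 151 to 189 FPKM in wild-type and 23.1 and 26.7 in alpha-amanitin libraries. The splicing helicases summed to 173 to 246 and to 74.1 and 70.2 FPKM. The helicases of mRNA export, translation and decay, which include Ddx3x, summed to 274 to 407 in wild-type and 339 and 281 FPKM in alpha-amanitin libraries, so these overlapped. Sums in the injected libraries were 734.5 to 1005 FPKM and overlapped the wild-type range. With 3 against 2 libraries the smallest two-sided p of an exact permutation test is 0.2, and no test is given for these sums.

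**Figure D2:**
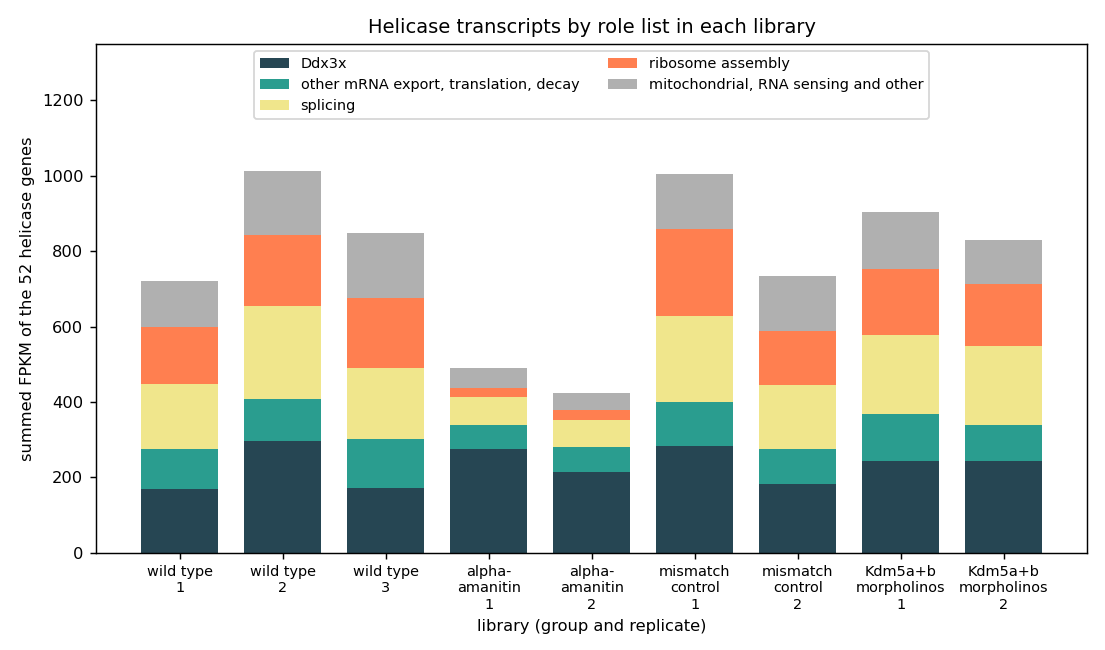
Summed FPKM of the helicase genes in each library (stacked bars from 0, in FPKM), divided into Ddx3x and the role lists. The alpha-amanitin bars reach 489 and 423 FPKM against 719.7 to 1014 in wild type, and Ddx3x is 56.1% and 50.5% of them.

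Across the family, 23 helicases fell and 1 rose with alpha-amanitin, and 26 did not pass the threshold. The comparison asks which of these transcripts depended on transcription in the embryo. Of the 52 members, 50 passed the filter on low values (1 FPKM or more in at least 2 libraries), and Dhx34 and Dhx58 did not. A gene was called at an adjusted p under 0.05 in limma over all 13137 tested genes, on differences in log2(FPKM + 1). Over all tested genes, 25.1% were called lower and 4.31% higher. The helicase counts, 23 and 1 of 50, lie above the first share and below the second. The 1 rise, Dhx35, passed the filter on low values through the group where it was high. The median difference was -1.23 over the 50 helicases and -0.56 over all tested genes. Alpha-amanitin values lay wholly below the wild-type values for 31 helicases, where 41.1% of all genes did so, and wholly above for 4 (Dhx35, Ddx19a, Ddx50 and Ddx58), where 13.4% did. Called shares depend on level, so they were also read within level classes. Of helicases with a mean of 20 FPKM or more, 7 of 12 fell (58.3%, against 35.2% of all genes at that level); of those from 5 to under 20 FPKM, 9 of 17 fell (52.9% against 39.3%); and of those under 5 FPKM, 7 of 21 fell (33.3% against 13.6%). Helicases named Ddx fell in 20 of 36 cases, with a median difference of -1.63, and those named Dhx in 3 of 14 tested, with a median of -0.75; the difference between the names was not tested. The scale of the data mattered for the balance. With quantile normalization the median of all genes was 0.17 rather than -0.56, and that of the helicases was -0.2. Under that setting 13.7% of all tested genes were called lower and 1716 of 13137 higher, and of the 50 helicases 12 were called lower and 4 higher. Without alpha-amanitin replicate 2, the median difference was -1.12 over the helicases and -0.61 over all tested genes.

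**Figure D3:**
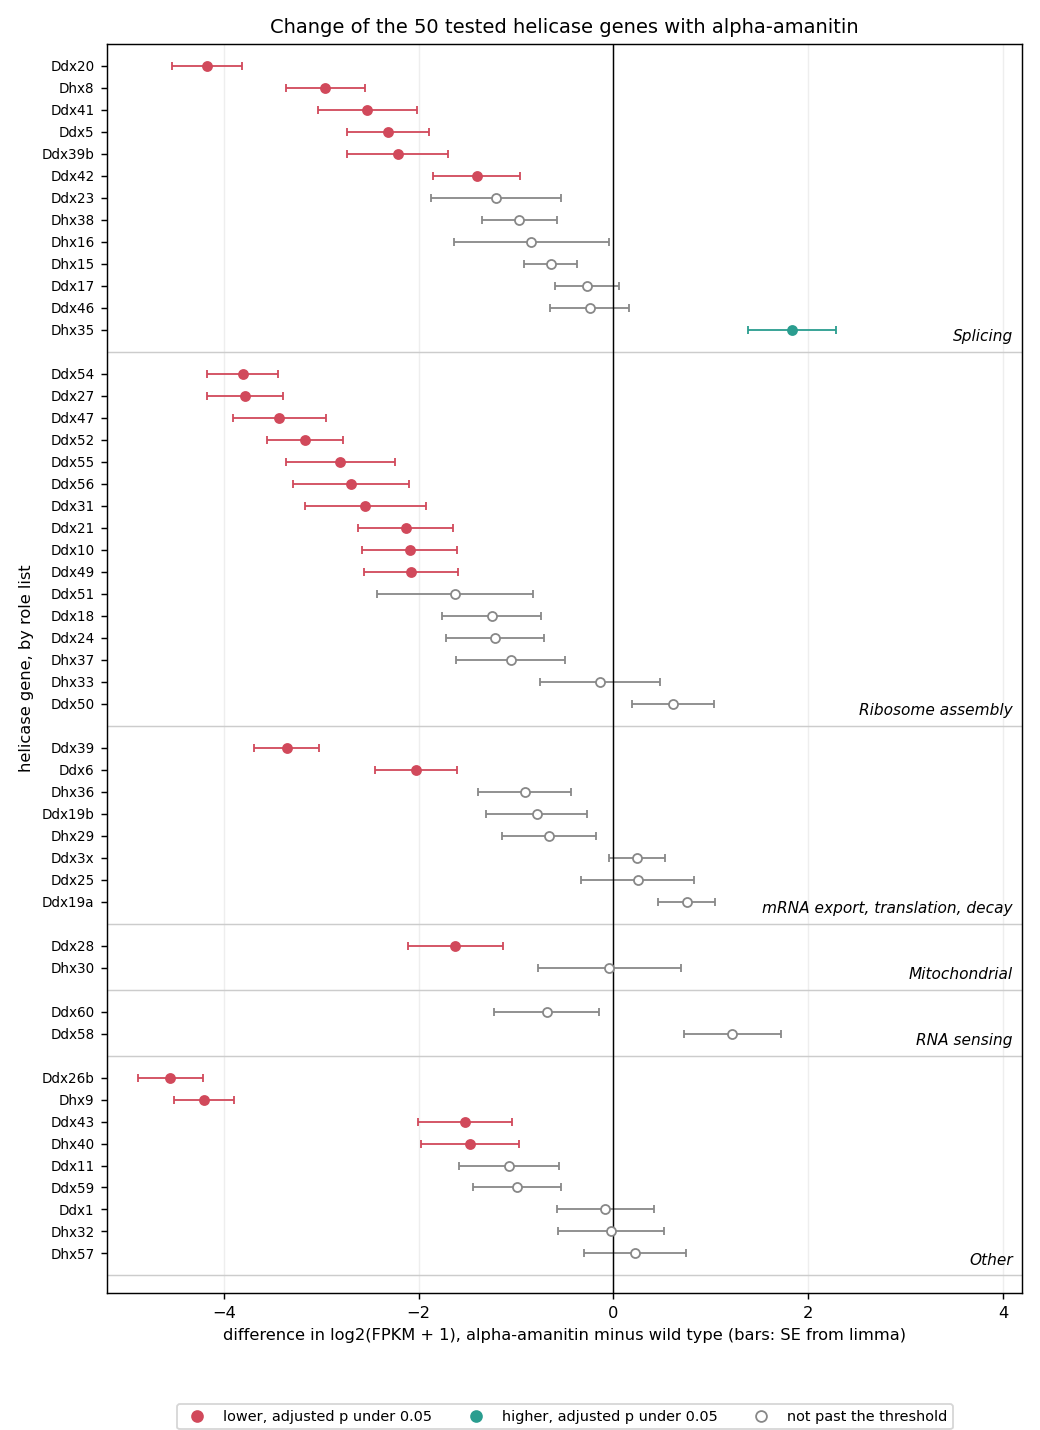
Difference in log2(FPKM + 1), alpha-amanitin minus wild type, for the 50 tested helicase genes grouped by role, with bars of 1 SE from limma; filled points passed an adjusted p of 0.05. Points run from -4.55 for Ddx26b to 1.83 for Dhx35, and 43 of 50 lie below 0.

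Promoter sequence is shown for 5 members, because the comparison separates genes whose RNA fell when transcription was blocked from genes whose RNA was not called lower. RefSeq start sites on GRCm38.p6 (the assembly also named mm10) were matched for 46 of the 52 members. For members the start nearest the gene start given with the deposited values was used. For the comparison set of 27025 the most upstream start of each gene was used, whether or not the gene was expressed. The sets were thus not chosen alike, and the shares below were not compared by a test. In the 250 bases before the start, 6 motifs were searched on both strands, where matches may overlap: the CCAAT box (CCAAT), the GC box (GGGCGG), an ETS factor motif (CCGGAAGT), an NRF1 motif, a TATA motif (TATAAA) and a YY1 motif (AAGATGGC). The GC box was found in 63.0% of helicase promoters and in 33.0% of the 27025 promoters of the table, the CCAAT box in 45.7% and 34.5%, the NRF1 motif in 13.0% and 3.87%, the ETS motif in 10.9% and 2.92%, the TATA motif in 2.17% and 13.0%, and the YY1 motif in 0.0% and 1.58%. The median ratio of observed to expected CpG was 0.86 in helicase promoters and 0.38 in all. The 21 matched helicases that fell held a GC box in 52.4% and a CCAAT box in 52.4% of promoters, and the 25 others in 72.0% and 40.0%. These shares are descriptions of letters, not of binding, and the difference between the helicases that fell and the others was not tested. Below are 120 bases from each of 5 promoters, ending just before the most upstream annotated start. Each reads 5′ to 3′ on the gene's strand, with motif matches on either strand in capitals. Dhx9, Ddx20 and Ddx27 fell at least 25.5-fold in mean FPKM, and Ddx3x and Ddx46 were not called lower.
Dhx9 (chr1:153487661-153487780, minus strand): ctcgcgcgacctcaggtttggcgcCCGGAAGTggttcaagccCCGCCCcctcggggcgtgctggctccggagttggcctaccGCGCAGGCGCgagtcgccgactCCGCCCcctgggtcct
Ddx20 (chr3:105687575-105687694, minus strand): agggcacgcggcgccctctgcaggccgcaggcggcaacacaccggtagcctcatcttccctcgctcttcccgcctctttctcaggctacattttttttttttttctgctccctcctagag
Ddx27 (chr2:167015073-167015192, plus strand): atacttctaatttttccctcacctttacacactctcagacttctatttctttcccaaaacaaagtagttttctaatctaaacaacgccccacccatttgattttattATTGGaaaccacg
Ddx3x (chrX:13280850-13280969, plus strand): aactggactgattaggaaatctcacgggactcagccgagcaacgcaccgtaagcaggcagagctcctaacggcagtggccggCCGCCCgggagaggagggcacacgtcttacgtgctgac
Ddx46 (chr13:55634879-55634998, plus strand): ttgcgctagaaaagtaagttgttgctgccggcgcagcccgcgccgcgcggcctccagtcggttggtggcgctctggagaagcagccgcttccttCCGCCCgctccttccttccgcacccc
The Dhx9 stretch holds 1 ETS motif, 1 NRF1 motif and 2 GC boxes. The Ddx27 stretch holds 1 CCAAT box, read on the opposite strand as ATTGG. Ddx3x and Ddx46 hold 1 GC box each, both read on the opposite strand as CCGCCC, and none of the 6 motifs lies in the Ddx20 stretch. In the 250 bases searched, Ddx20 and Ddx27 also held 1 GC box each, outside the stretches shown. No base in these stretches belongs to more than 1 match.

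Of the helicases of ribosome assembly, the longest of the role lists, 10 of 16 fell (62.5%, against 25.1% of all tested genes), none rose, and the median difference was -2.11 against -0.56 for all genes. These proteins remodel the precursor of ribosomal RNA in the nucleolus. Ddx54 (chr5:120613130-120628590) was at 16.1, 21.3 and 25.7 FPKM in wild-type libraries and at 0.534 and 0.559 with alpha-amanitin. In injected embryos it was at 29.5 and 17.6 FPKM with mismatch control and 22.4 and 27.2 with Kdm5a+b morpholinos. Only the alpha-amanitin libraries were low, and the means were 38.5-fold apart (log2 difference -3.81, SE 0.37, adjusted p = 3.41e-05 by limma). Ddx27 (chr2:167015193-167034947), which matures the large-subunit RNA, was at 32.5, 27.6 and 23.5 FPKM in wild type, 1.32 and 0.868 with alpha-amanitin, 50.96 and 21.9 in mismatch controls and 36.7 and 30.7 with Kdm5a+b morpholinos. It fell 25.5-fold (log2 difference -3.78, SE 0.39, adjusted p = 5.11e-05 by limma). Ddx47 (chr6:135011612-135023776), which acts early on the precursor, was at 21.8, 34.5 and 53.9 FPKM in wild-type and 1.37 and 3.55 in alpha-amanitin libraries. Mismatch controls had 39.8 and 22.0 FPKM and Kdm5a+b libraries 24.1 and 44.6. Its wild-type values were wide apart, yet all 7 libraries without alpha-amanitin lay above both with it (log2 difference -3.43, SE 0.48, adjusted p = 0.000401 by limma). Ddx52 (chr11:83942062-83963088), a small-subunit factor, was at 12.1, 20.7 and 24.8 FPKM in wild type, 1.56 and 0.825 with alpha-amanitin, 25.4 and 21.4 in mismatch controls and 15.9 and 14.0 with Kdm5a+b morpholinos. It fell 16.1-fold (log2 difference -3.17, SE 0.39, adjusted p = 0.000166 by limma).

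Lower in level, 3 further ribosome assembly helicases were at or near 0 without transcription. Ddx56, a large-subunit factor, had 2.62, 11.7 and 4.86 FPKM in wild-type libraries, and both alpha-amanitin libraries list it at 0; the injected libraries had 2.54 to 6.97 FPKM. Ddx55 was at 5.26, 8.79 and 4.60 FPKM in wild type and at 0.00373 and 0 with alpha-amanitin. Ddx31 was at 13.7, 2.56 and 3.65 FPKM in wild type, with replicate 1 well above the others, and at 0.0926 and 0.0447 with alpha-amanitin. All 3 fell (log2 differences -2.69, -2.80 and -2.55, adjusted p = 0.00637, 0.00359 and 0.0106 by limma). No fold is given against libraries at 0, and on this scale differences of low genes are understated: with a pseudocount of 0.1 they were -5.76, -5.90 and -4.95. The call of Ddx56 ended without the filter on low values and that of Ddx31 ended with quantile normalization, without the filter or without either alpha-amanitin library. Ddx49 fell as well, from 2.59, 2.99 and 5.94 FPKM to 0 and 0.197 (log2 difference -2.08, adjusted p = 0.00819 by limma), a call lost without alpha-amanitin replicate 1 and with quantile normalization. It overlaps Homer3, itself at a mean of 3.41 FPKM in wild type and at 0 in both alpha-amanitin libraries. The sources used here do not say whether reads were counted by strand, and the part of this overlap was not tested. Ddx10 fell from 8.89 ± 5.56 (SD, n = 3) to 1.13 ± 0.45 FPKM (SD, n = 2), with an adjusted p of 0.00843 by limma, a call lost without alpha-amanitin replicate 2 and with quantile normalization. The 6 members of this list that were not called included Dhx33, which promotes ribosomal RNA synthesis, at 5.01, 12.7 and 8.34 FPKM in wild type and 3.66 and 13.9 with alpha-amanitin. Of the others, Ddx18, Ddx24 and Dhx37 were lower in both alpha-amanitin libraries than in any wild-type one without passing the test (differences -1.25, -1.22 and -1.06). Ddx51 differed widely between the 2 alpha-amanitin libraries, at 5.52 and 0.0889 FPKM, against 10.9, 9.42 and 3.51 in wild type.

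Among the splicing helicases 6 of 13 fell and 1 rose, with a median difference of -1.21, where 25.1% of all tested genes were lower and 4.31% higher with a median of -0.56. Ddx20 (chr3:105678270-105687574), also called Gemin3, belongs to the SMN complex that loads proteins onto spliceosomal small RNAs. It was at 22.3, 26.2 and 29.7 FPKM in wild type, 1.02 and 0.101 with alpha-amanitin, 27.5 and 22.9 in mismatch controls and 22.2 and 21.7 with Kdm5a+b morpholinos. The 7 libraries without alpha-amanitin were close together and the mean fell 46.7-fold (log2 difference -4.17, SE 0.36, adjusted p = 1.9e-05 by limma). Dhx8 (chr11:101732919-101767358), which releases the finished mRNA from the spliceosome, was at 19.0, 46.0 and 24.4 FPKM in wild type, 1.94 and 3.67 with alpha-amanitin, 27.02 and 26.5 in mismatch controls and 25.0 and 23.8 with Kdm5a+b morpholinos. Wild-type replicate 2 was high, and the fall was 10.6-fold between means (log2 difference -2.96, SE 0.40, adjusted p = 0.00033 by limma). Ddx41, another spliceosomal DEAD-box protein, was at 7.46, 13.5 and 10.7 FPKM in wild type and 0.368 and 1.80 with alpha-amanitin (log2 difference -2.53, adjusted p = 0.00378 by limma), a call lost with quantile normalization. Ddx42 passed narrowly (-1.40, adjusted p = 0.0371 by limma) and lost its call with quantile normalization and when any of 7 of the 9 libraries was left out.

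Dhx35, a DEAH-box protein found in the catalytic spliceosome, was the single helicase that rose. It was at 0.741, 0.108 and 0.174 FPKM in wild type and at 2.99 and 4.50 with alpha-amanitin. Mismatch controls had 0.498 and 0.117 FPKM and Kdm5a+b libraries 0.457 and 1.20, so both alpha-amanitin libraries lay above the other 7. It reached 1 FPKM only in the 2 alpha-amanitin libraries and Kdm5a+b replicate 2, so it passed the filter on low values through the group where it was high. The deposited lower bound of alpha-amanitin replicate 1 was 1.84, below the upper bound of 1.86 of wild-type replicate 1. The means were 10.98-fold apart (log2 difference 1.83, SE 0.455, adjusted p = 0.0117 by limma). Without alpha-amanitin replicate 2 the adjusted p was 0.0844, and without the filter on low values it was 0.0526.

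Ddx46, the helicase that lets the spliceosome bind the branch point, was at 20.3, 38.1 and 15.8 FPKM in wild type and 25.9 and 14.4 with alpha-amanitin, and the groups overlapped. Its log2 difference was -0.24 (95% interval -1.14 to 0.65). Dhx15, which takes spliceosomes apart, was at 24.1, 23.3 and 26.5 FPKM in wild type and 14.2 and 16.6 with alpha-amanitin. These 5 values did not overlap, but the difference of -0.65 was not called (95% interval -1.25 to -0.04, adjusted p = 0.103 by limma). Ddx23, Dhx38 and Dhx16, which act in spliceosome activation and later steps, differed by -1.21, -0.97 and -0.84 and were not called either. Dhx16 passed without wild-type replicate 2, its low library (-1.79, adjusted p = 0.0284 by limma).

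Of the helicases of mRNA export, translation and decay, 2 of 8 tested members fell and none rose, where 25.1% of all tested genes fell. The median difference was -0.73 against -0.56 for all genes. Ddx39b, the close relative of Ddx39, was also called lower but was counted in the splicing list, so these counts depend on how members were assigned. Ddx39, which unwinds and packages mRNA for export, was at 55.7, 47.8 and 76.9 FPKM in wild type, 4.11 and 5.69 with alpha-amanitin, 58.1 and 37.4 in mismatch controls and 63.4 and 41.6 with Kdm5a+b morpholinos. It fell 12.3-fold (log2 difference -3.36, SE 0.34, adjusted p = 4.4e-05 by limma). Ddx6 (chr9:44604892-44640731), which represses translation and marks mRNA for storage or decay, was at 8.43, 10.47 and 10.46 FPKM in wild type and 1.19 and 2.16 with alpha-amanitin. Injected embryos had 3.72 to 8.44 FPKM. The wild-type values were tight and the fall was 5.84-fold (log2 difference -2.03, SE 0.42, adjusted p = 0.00453 by limma), a call lost with quantile normalization (-0.99, adjusted p = 0.108 by limma).

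Ddx3x and Ddx19a remained abundant without transcription. Ddx3x was at 275 and 213.5 FPKM with alpha-amanitin, inside its wild-type range of 168 to 295, and at 283.5 and 181 in mismatch controls and 244 in both Kdm5a+b libraries. Its log2 difference was 0.25 (95% interval -0.39 to 0.88, adjusted p = 0.55 by limma), so a fall as large as those of Ddx39 or Ddx6 lies outside the interval. Ddx19a (chr8:110974996-110997800), which releases export proteins from mRNA at the nuclear pore, was at 30.8, 38.9 and 22.4 FPKM in wild type, 37.2 and 30.3 in mismatch controls, 38.3 and 35.9 with Kdm5a+b morpholinos, and 49.0 and 53.2 with alpha-amanitin. Both alpha-amanitin libraries were above the other 7, but the 1.67-fold difference was not called (log2 0.75, SE 0.29, adjusted p = 0.0774 by limma). It passed with quantile normalization (0.98, adjusted p = 0.0338), after rescaling to TPM (0.92, adjusted p = 0.0379) and without wild-type replicate 2 (0.93, adjusted p = 0.0388, all by limma). Ddx25, a helicase known from male germ cells, was at or under 1.03 FPKM in 8 libraries and at 3.11 in mismatch control replicate 2. Dhx36 and Dhx29, the latter a helicase of translation initiation, differed by -0.91 and -0.66 without a call, and Dhx34, a factor of nonsense-mediated decay, was at or under 0.569 FPKM in every library.

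Outside these roles, Ddx26b and Dhx9 had the largest differences of the family on the log2(FPKM + 1) scale. That order depends on the scale: by the ratio of mean FPKM Ddx20 and Ddx54 fell further than Dhx9. Ddx28, Ddx31, Ddx49, Ddx55 and Ddx56 were at or near 0 with alpha-amanitin. No ratio is given for them, so neither Ddx26b nor Dhx9 is ranked against them by ratio. Ddx26b (chrX:56454857-56507843) was at 26.3, 29.9 and 36.2 FPKM in wild type, 0.569 and 0.155 with alpha-amanitin, 24.4 and 23.4 in mismatch controls and 19.3 and 25.2 with Kdm5a+b morpholinos. It fell 85.1-fold between means (log2 difference -4.55, SE 0.34, adjusted p = 7.01e-06 by limma). Dhx9, which unwinds RNA in transcription and binds structured repeats, was at 38.6, 69.0 and 54.0 FPKM in wild type, 2.07 and 1.74 with alpha-amanitin, 61.3 and 58.8 in mismatch controls and 55.7 and 46.2 with Kdm5a+b morpholinos. It fell 28.2-fold (log2 difference -4.20, SE 0.31, adjusted p = 7.01e-06 by limma). For both genes the 7 libraries without alpha-amanitin were at least 19.3 FPKM and the 2 with it at most 2.07. Ddx43 (-1.52) and Dhx40 (-1.48) also fell, with adjusted p = 0.037 and 0.0477 by limma; both calls were lost under several settings. Dhx32, a little-studied DEAH-box protein, was at 16.3, 14.8 and 36.2 FPKM in wild type and 19.2 and 21.3 with alpha-amanitin, and its locus overlaps Bccip and Fank1, both expressed here. Dhx57 was at 2.79, 1.15 and 2.99 against 1.84 and 3.89 FPKM. The remaining members, Ddx11, Ddx59 and Ddx1, differed by -1.08, -0.99 and -0.08 and were not called.

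Few helicases with mitochondrial or sensing roles were measured. Ddx28, which helps assemble the mitochondrial ribosome (chr8:106009621-106011882), was at 2.66, 1.23 and 2.89 FPKM in wild type and 0.0545 and 0 with alpha-amanitin (log2 difference -1.63, adjusted p = 0.0287 by limma), a call lost in 7 of the alternative settings. Dhx30, of the mitochondrial RNA granule, was at 6.37, 27.8 and 5.49 FPKM against 12.3 and 7.80, with wild-type replicate 2 high (difference -0.04, 95% interval -1.66 to 1.58). Of the RNA sensors, Ddx58, also called RIG-I, was at 1.05, 1.94 and 0.423 FPKM in wild type and 4.34 and 3.26 with alpha-amanitin. Both alpha-amanitin values lay above all 7 others, which reached at most 1.94, but the difference of 1.22 did not pass (adjusted p = 0.0898 by limma); with quantile normalization it did (2.13, adjusted p = 0.00866 by limma). Ddx60, an interferon-induced cofactor of RIG-I, overlapped between groups, at 1.01, 1.03 and 4.07 against 0.296 and 1.25 FPKM. Dhx58, the sensor LGP2, was under 1 FPKM in 8 of 9 libraries and was not tested.

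Close relatives within the family had unlike values. Ddx5 and Ddx17 are partner splicing cofactors that can substitute for each other in many cells. Ddx5 was at 30.4, 58.5 and 31.2 FPKM in wild type and 7.32 and 6.45 with alpha-amanitin (log2 difference -2.32, SE 0.42, adjusted p = 0.00215 by limma), whereas Ddx17 was at 16.4, 11.1 and 15.3 and at 9.86 and 13.4 FPKM, which overlapped (-0.27, 95% interval -0.996 to 0.45). In wild-type means Ddx5 was the higher of the pair, 40.0 against 14.3 FPKM, and with alpha-amanitin Ddx17 was, 11.6 against 6.88 FPKM. Ddx19b, the close copy of Ddx19a, was at 2.23, 2.98 and 6.36 FPKM in wild type and 0.966 and 2.53 with alpha-amanitin (-0.79, adjusted p = 0.282 by limma). The export pair Ddx39 and Ddx39b were both lower: Ddx39b went from 2.81, 5.33 and 8.84 FPKM to 0.549 and 0.148 (-2.21, adjusted p = 0.0087 by limma), a call lost with quantile normalization and without alpha-amanitin replicate 2. The nucleolar pair parted: Ddx21 fell from 7.45, 8.24 and 9.53 to 2.23 and 0.417 FPKM (-2.13, adjusted p = 0.00775 by limma; lost under the same settings), while Ddx50 was at 0.864, 0.626 and 0.613 FPKM in wild type and 1.46 and 1.73 with alpha-amanitin (0.61, adjusted p = 0.306 by limma). Differences within pairs were not tested, and the sources used here do not say how reads shared by near-identical copies were divided, so values of such pairs are uncertain.

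Other RNA helicases and partner proteins of the family were read against the same background, 25.1% of all tested genes lower, 4.31% higher and a median of -0.56. Of 15 tested RNA helicases outside the symbol rule, 8 fell and none rose, with a median difference of -1.30. On the log2(FPKM + 1) scale the largest fall was that of Eif4a2, an isoform of the translation initiation helicase (-2.34, adjusted p = 0.00661 by limma). Next came Aqr, an intron-binding spliceosomal helicase (-2.01, adjusted p = 0.00334 by limma). Eif4a3, the helicase of the exon junction complex, followed (-1.98, adjusted p = 0.00141 by limma). By the ratio of mean FPKM, Skiv2l (6.04-fold), Aqr (5.70-fold) and Snrnp200 (5.27-fold) fell further than Eif4a3 (4.55-fold) and Eif4a2 (4.51-fold). Of 31 tested cofactors, 17 fell and none rose, with a median of -0.94. Rbm5, a splicing regulator with a G-patch, the motif that activates DEAH-box helicases, was at 80.4, 107 and 80.2 FPKM in wild type and 2.46 and 1.61 with alpha-amanitin (-4.89, SE 0.31, adjusted p = 3.64e-06 by limma). Zgpat and Gpatch3, which also carry a G-patch, fell by 3.17 and 3.16 on the log2(FPKM + 1) scale (adjusted p = 0.00204 and 0.00441 by limma). By the ratio of mean FPKM, Gpatch3 (90.6-fold) fell further than Rbm5 (43.8-fold) and Zgpat (39.7-fold). No ratio is given for Nom1, at 0 and 0.198 FPKM with alpha-amanitin.

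No helicase passed the test when mismatch control embryos were set against uninjected wild-type embryos. In limma 0 of 50 were called (0.0% of all genes), and 1 had an unadjusted p under 0.05, where 4.69% of all genes did. Mismatch control values were wholly below the wild-type values for 5 members, where 8.85% of all genes were, and wholly above for 2, where 9.26% were. The median difference was -0.01, and 41 of 50 differences lay within 0.5. The 95% intervals reached a median of 1.07 to either side, so differences within that range could not be told from 0 for the typical member. The smallest p was that of Ddx28, at 2.66, 1.23 and 2.89 FPKM in wild type and at 5.68e-08 and 0.0607 in mismatch controls (log2 difference -1.62, SE 0.49, unadjusted p = 0.00702, adjusted p = 0.941 by limma). Next by p were Dhx36, which unwinds G-quadruplexes, at 4.49, 3.83 and 8.10 against 3.51 and 1.49 FPKM (-0.89), Ddx25 (0.81) and Ddx50 (0.57).

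No helicase passed the test with morpholinos against Kdm5a and Kdm5b set against the mismatch controls. The comparison asks whether loss of these demethylases alters the RNA the embryo makes. In limma 0 of 50 helicases were called (0.0% of all genes), and 1 had an unadjusted p under 0.05, where 3.15% of all genes did. Differences were divided evenly, 25 below and 25 above 0, with a median of -0.03, and 38 lay within 0.5. Kdm5a+b values were wholly below the controls for 8 members, where 16.8% of all genes were, and wholly above for 5, where 16.5% were. Intervals reached a median of 1.18 to either side. Of the helicases that fell under alpha-amanitin, Dhx9 had 61.3 and 58.8 FPKM in mismatch control libraries, against 55.7 and 46.2 with Kdm5a+b morpholinos. Ddx20 had 27.5 and 22.9 against 22.2 and 21.7 FPKM. Their differences were -0.24 and -0.19. Other strong fallers overlapped between these groups: Ddx26b (-0.11), Ddx27 (0.004), Ddx54 (0.11), Ddx39 (0.14) and Ddx47 (0.14). After Ddx28, the smallest p values were those of Ddx49 (-0.80), Ddx52 (-0.61) and Dhx16 (1.23), the last at 7.22 and 8.02 FPKM in mismatch controls and 17.9 and 20.6 with Kdm5a+b morpholinos, both above its highest wild-type value of 17.0.

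Ddx28 had the smallest p in both morpholino comparisons, which share the mismatch control libraries. Mismatch control libraries had 5.68e-08 and 0.0607 FPKM, with deposited upper bounds of 0.0286 and 0.146, and Kdm5a+b libraries had 1.70 and 4.53 FPKM, with lower bounds of 1.25 and 3.74. The difference was 1.91 (SE 0.53, 95% interval 0.73 to 3.08, unadjusted p = 0.0046, adjusted p = 1.0 by limma), so it did not pass. Low values were thus seen in 4 of 9 libraries, the mismatch control and alpha-amanitin ones, and values of 1.23 to 4.53 in the other 5. The gene lies wholly inside the locus of Dus2, over 2262 bases. Dus2 was at 3.43, 6.73 and 3.23 FPKM in wild type, 0.112 and 3.58 with alpha-amanitin, 6.58 and 6.59 in mismatch controls and 7.71 and 3.18 with Kdm5a+b morpholinos. How reads of the shared stretch were assigned was not tested.

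**Figure D4:**
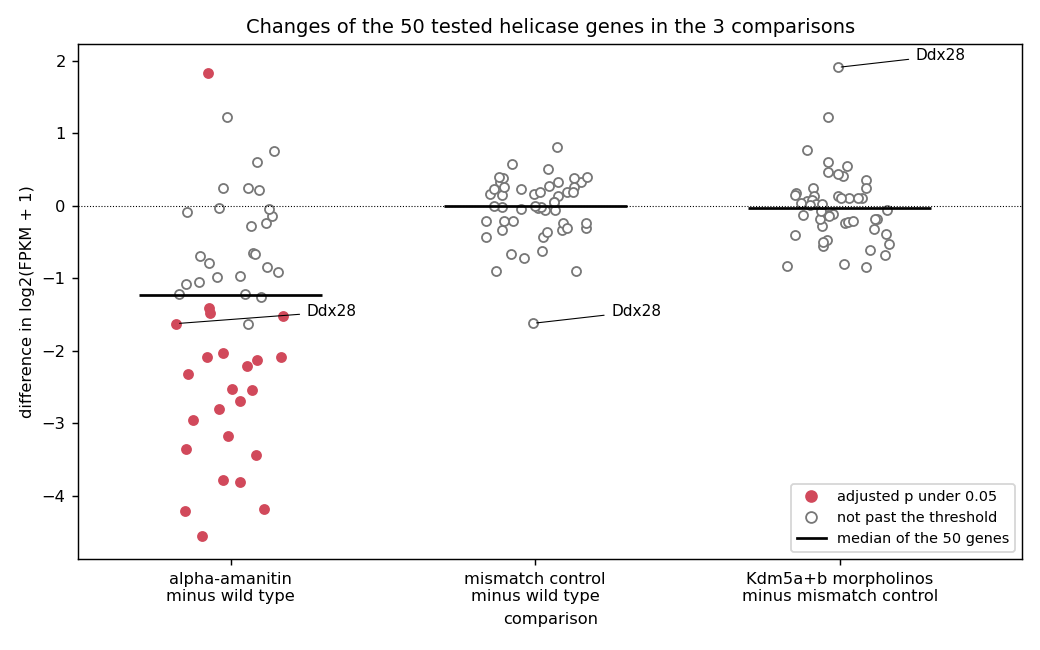
Differences in log2(FPKM + 1) of the 50 tested helicase genes in 3 comparisons, 1 point per gene, filled where the adjusted p was under 0.05, with a line at the median of the 50 genes. With alpha-amanitin the points spread from -4.55 to 1.83 around a median of -1.23, and in both morpholino comparisons they centre on -0.01 and -0.03 with Ddx28 farthest from 0.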

How the data were processed

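Per the file headers, the authors deposited, for each library, FPKM values of 32287 genes with their confidence bounds and a status, which was OK for every helicase. Per the labels' protocols, total RNA was extracted with the RNeasy Micro kit and sequenced from TruSeq libraries. Cufflinks, BWA, Picard, Trimmomatic, SAMtools and Bismark (12.5) were used in the series on build mm10, per the submitters' processing notes, without their roles. The sources used here do not name the RNA-seq aligner or annotation. The other samples of the series were not analysed.

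Here log2(FPKM + 1) was fitted with limma 3.58.1 in R 4.3.3 on 13137 genes that reached 1 FPKM in 2 libraries or more, with group as the only term, all 9 libraries sharing 1 estimate of the spread (5 residual degrees of freedom), and eBayes with a trend. Tests were two-sided with Benjamini-Hochberg adjustment over all tested genes, and called at 0.05. Differences come with SE or 95% intervals from that model, and folds are ratios of mean FPKM. The pipeline was tested on simulated data with independent noise, in which a small set of well-expressed genes was changed, evenly up and down. That setting is unlike these data, where many genes fell and many lie near 0, so it does not test the calls made here. An exact permutation test cannot give a p below 0.2 for 3 against 2 libraries or 0.333 for 2 against 2. Positions count from 1.

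Members, role lists, partner lists and markers were chosen with earlier results of these data known. Named genes were the 8 highest in wild type, the 12 largest falls and the rises with alpha-amanitin, the 4 smallest p values per morpholino comparison, close pairs, genes at 0 in a group, and the extremes of each list; others were added so that every member is accounted for. The design had foreseen exact permutation tests of single members and motifs in the proteins; the first cannot pass the threshold and the second was not done. Alternatives were the pseudocount, the filter, quantile normalization, rescaling to TPM, the libraries in the fit, a replicate block, the trend, array weights and leaving out each library.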

Additional observations from a re-analysis of the deposited data

How the results depend on the processing

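With alpha-amanitin, 23 helicases were lower and 1 higher, where 25.1% and 4.31% of all tested genes were. With quantile normalization 13.7% of all tested genes were lower and 1716 of 13137 higher. The count of lower calls was 12 with quantile normalization, which loses 11 of the 23, and 15 to 22 when 1 library was left out, with 15 without alpha-amanitin replicate 2. The count of higher helicases was 0 without a filter on low values, where 337 of 32287 genes were higher. At a mean of 5 FPKM or more it was 0 (Dhx35 was not tested), where 542 of 6265 genes were higher. It was 4 with quantile normalization, and 2 after rescaling to TPM, where 771 of 13137 genes were higher. It was 1 or 2 when 1 wild-type library was left out, where 393 to 502 of 13137 genes were higher. The cause was not tested, except that the stricter filter tests 29 of the 50 helicases. With the replicate block, 19 helicases were lower and 1 higher, where 20.9% of all tested genes were lower and 371 of 13137 higher. Same-numbered libraries deviated together at r = -0.048 to 0.041, so the numbers do not pair them. The calls of 11 helicases held under every setting that tested them: Ddx5, Ddx20, Ddx26b, Ddx27, Ddx39, Ddx47, Ddx52, Ddx54, Ddx55, Dhx8 and Dhx9. Under no setting was a helicase called in either morpholino comparison, and no called difference changed sign among the helicases named by rule. Depth in reads is unknown, so differences of genes near 0 FPKM are limited by the deposited bounds. Of all helicase values, 10 lay outside their own bounds. These were values of Dhx8, Dhx30, Ddx39 and Ddx47 at 13.5 FPKM or more, and none was from an alpha-amanitin library.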
